A study of Mus musculus with 17 samples.

Results

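The TNF ligand and receptor superfamily was followed across Myc/Bcl2-transformed mouse leukemias and healthy progenitor cells, measured on Affymetrix expression arrays. Members were the genes with 1 annotated symbol beginning Tnfsf or Tnfrsf, together with Tnf, Lta, Ltb, Ltbr, Fas, Cd27, Cd40, Cd40lg and Cd70. The rule gave 37 of the 17097 genes measured, through 58 probe sets. 1 of the 37, Tnfsf13os, is a gene on the strand opposite Tnfsf13 and meets the rule by its symbol alone; it is not a ligand. Tnfsf12, Tnfsf15, Tnfsf18 and Tnfrsf26 were not analysed here, because no probe set listed them as its only gene.

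The 17 arrays fell into 5 groups, all C57/Bl6 with the genotype given as wildtype. Of the 13 leukemia arrays, 3 were labelled as derived from LSK cells (Lineage-, Sca1+, c-kit+ bone marrow cells, a population enriched for blood stem cells), 5 from DN2 cells (CD4- CD8- thymocytes at the DN2 stage) and 5 from GMPs (granulocyte-macrophage progenitors of the bone marrow). Donor cells carried Myc and Bcl2, and recipients were 4 to 8 weeks old and had received 4.5 to 6 Gy of total body irradiation. The design describes the leukemic samples as spleen cells sorted as CD11b+ Gr1+ and negative for CD3, CD4 and CD8. The 4 healthy arrays, 2 of thymic DN2 cells and 2 of bone marrow GMPs, were not described as irradiated or transformed. By their description, leukemic and healthy samples thus differed in organ, cell population and irradiation as well as in transformation. These cannot be told apart here, and rose and fell against healthy cells give only the direction of a difference. The labels and design do not name the vector's Myc gene, and no healthy LSK arrays were analysed here. Nothing in the labels says that replicates came from separate mice, so p-values measure the spread between these samples, which may be technical.

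TNF ligands are mostly trimeric membrane proteins, some of them shed, and they signal by clustering their receptors. Receptors with a death domain, such as Fas and TNF receptor 1, can start caspase-dependent or necroptotic death, whereas the others recruit TRAF adaptors and turn on canonical or non-canonical NF-kB. In blood formation, BAFF (Tnfsf13b) and APRIL (Tnfsf13) are produced mainly by myeloid cells, lymphotoxin beta (Ltb) by lymphoid cells, and Cd27 is carried by early progenitors and by T and NK cells.

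Several arrays went against their labels or stood apart from their group. The T cell marker list (4 of 7 markers measured) averaged 10.35 to 11.07 in the DN2-labelled leukemias and 4.39 to 5.24 in the other leukemia arrays, and Itgam, which encodes CD11b, read 7.17 and 7.38 in DN2-labelled arrays 1 and 3 and 3.24 to 3.47 in arrays 2, 4 and 5. Mycn, high in all DN2- and GMP-labelled arrays (11.58 to 13.15) and in LSK-labelled array 1 (12.82), read 4.91 and 4.22 in LSK-labelled arrays 2 and 3, within 1 unit of the healthy arrays (3.96 to 4.58). Bcl2 read 11.30 in LSK-labelled array 1 and 6.75 and 5.27 in arrays 2 and 3. Groups are therefore called by their labels, and for many results values without these arrays are also given. Array medians lay between 3.80 and 3.86. Values are the deposited log2 expression values, where 1 unit is a doubling.

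Promoters are shown for 4 members with large differences between groups, chosen after their values were seen: Ltb, Ltbr, Tnfrsf21 and Cd27. They come from RefSeq (GRCm38.p6), run 5′ to 3′ on the gene's strand from 250 bases before to 50 bases after the annotated start, and lie at chr17:35194257-35194556 (plus strand), chr6:125313836-125314135 (minus), chr17:43016305-43016604 (plus) and chr6:125236978-125237277 (minus). Capitals mark matches, on either strand, to 4 motifs: CACGTG (the E-box bound by Myc and its partner), GAGGAA (a PU.1 core), TGTGGT (a Runx core) and an NF-kB pattern, the longer run of capitals in Ltb.
Ltb: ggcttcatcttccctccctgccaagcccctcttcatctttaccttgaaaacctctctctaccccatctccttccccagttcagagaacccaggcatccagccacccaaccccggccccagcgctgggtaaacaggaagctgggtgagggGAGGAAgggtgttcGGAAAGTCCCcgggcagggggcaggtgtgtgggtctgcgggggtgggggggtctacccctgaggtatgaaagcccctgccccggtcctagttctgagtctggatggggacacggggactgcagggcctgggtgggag
Ltbr: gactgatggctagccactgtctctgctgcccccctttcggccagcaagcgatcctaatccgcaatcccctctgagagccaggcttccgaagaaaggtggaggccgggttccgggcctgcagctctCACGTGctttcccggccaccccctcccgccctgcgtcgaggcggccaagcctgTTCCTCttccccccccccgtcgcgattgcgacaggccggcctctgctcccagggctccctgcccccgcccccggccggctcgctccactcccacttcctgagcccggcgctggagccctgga
Tnfrsf21: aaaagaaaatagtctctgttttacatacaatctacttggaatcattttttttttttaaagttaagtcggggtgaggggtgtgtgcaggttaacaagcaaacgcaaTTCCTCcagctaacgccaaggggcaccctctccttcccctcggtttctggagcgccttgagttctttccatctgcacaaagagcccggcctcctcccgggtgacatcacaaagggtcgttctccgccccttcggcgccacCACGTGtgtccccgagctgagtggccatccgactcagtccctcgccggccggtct
Cd27: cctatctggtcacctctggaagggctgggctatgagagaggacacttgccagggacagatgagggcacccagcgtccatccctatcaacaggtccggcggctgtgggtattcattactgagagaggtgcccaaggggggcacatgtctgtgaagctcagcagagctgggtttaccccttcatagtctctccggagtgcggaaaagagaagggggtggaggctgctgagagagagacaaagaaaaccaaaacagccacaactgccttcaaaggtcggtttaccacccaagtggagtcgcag
In Ltb, GAGGAA begins at position -101 from the start and the NF-kB pattern, on the opposite strand, at -87. Both Ltbr and Tnfrsf21 held CACGTG and a GAGGAA match on the opposite strand, and Cd27 held none of the 4 motifs in this window. Among 32 promoters of the 28 members listed, CACGTG was found in 6 (7.15% of all 32851 promoters), GAGGAA in 11 (28.3%), TGTGGT in 6 (16.8%) and the NF-kB pattern in 3 (1.63%). The motifs searched do not overlap one another in the sequences shown. A match describes the letters and says nothing about binding in these cells.

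Of the 37 members, 23 exceeded background in at least 1 group and 14 did not. A member was near background when no group mean was more than 1 log2 unit above the median of all values (3.83). The 14 made up 37.8% of members, against 43.2% of all genes. They were the ligands Cd40lg, Cd70, Lta, Tnfsf4, Tnfsf8 and Tnfsf9 and the receptors Tnfrsf8, Tnfrsf10b, Tnfrsf11a, Tnfrsf11b, Tnfrsf17, Tnfrsf19, Tnfrsf23 and Tnfrsf25, with array values from 2.67 to 5.99. Cd70, the ligand of Cd27, stayed at 3.01 to 3.77 in all 17 arrays. Within this set, Tnfsf9 reached 5.98 in LSK-labelled array 2 and Tnfsf4 reached 5.24 in DN2-labelled array 3. For Tnfrsf17 (BCMA, a receptor of plasma cells) a single array stood out. Tnfrsf17 read 5.99 in LSK-labelled array 1 and 2.67 to 3.21 in the other 16. Jchain, the 1 plasma cell marker measured of 3 listed, read 12.89 in that array and 10.47 in LSK-labelled arrays 2 and 3; its part in the result was not tested.

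The test covered genes whose highest group mean lay above that median, 11629 in all, among them 27 members. limma was fitted to all 17 arrays and p-values were adjusted by Benjamini-Hochberg over the 11629 genes. Called here means an adjusted p under 0.05. Cd40, Tnfsf11 and Tnfrsf17 passed this filter only through the group where each is high, so their calls against that group are counted below but support nothing about the members as a whole. With no filter the calls of Cd40 and Tnfsf11 remained and that of Tnfrsf17 did not. The other 10 members were the near-background ones apart from Tnfrsf10b, Tnfrsf17, Tnfsf4 and Tnfsf9. Differences against a group at background understate the true ratio, and the number of arrays limits the precision of every value. In bulk samples, fewer cells of a type and less RNA per cell cannot be told apart.

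More members, and more of all genes, were called between the DN2-labelled leukemias and either other leukemia than between the LSK- and GMP-labelled ones. DN2- and GMP-labelled leukemias differed at 15 of 27 members, or 55.6%, where 39.8% of all genes tested were called. In DN2, 7 members were higher (21% of all genes) and 8 lower (18.8%), and the groups did not overlap in any array at 12 members (28.1% of all genes). The median size of the difference, in either direction, was 1.63 over members and 0.42 over all genes. DN2- and LSK-labelled leukemias differed at 14 members (51.9%), where 47.4% of all genes were called, a share near the background. Of these, 3 were higher in DN2 (28.3% of all genes) and 11 lower (19.1%), and 10 members had groups that did not overlap (41.9%). The median size was 1.44 over members and 0.59 over all genes. LSK- and GMP-labelled leukemias differed at 4 members (14.8%), against 26.7% of all genes. All 4 were higher in LSK (10.3% of all genes), none was lower (16.5%), and 5 members had groups that did not overlap (23.9%). These comparisons share arrays. For the fits below that leave out arrays, the share of all genes called is not given, so their counts cannot be set against it. Without LSK-labelled arrays 2 and 3, DN2- and LSK-labelled leukemias differed at 9 members, and LSK- and GMP-labelled ones at 6, with 3 higher in LSK and 3 lower, of which 2 were among the 4 above. Without LSK-labelled array 1, LSK- and GMP-labelled leukemias differed at 9, all higher in LSK.

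**Figure D1:**
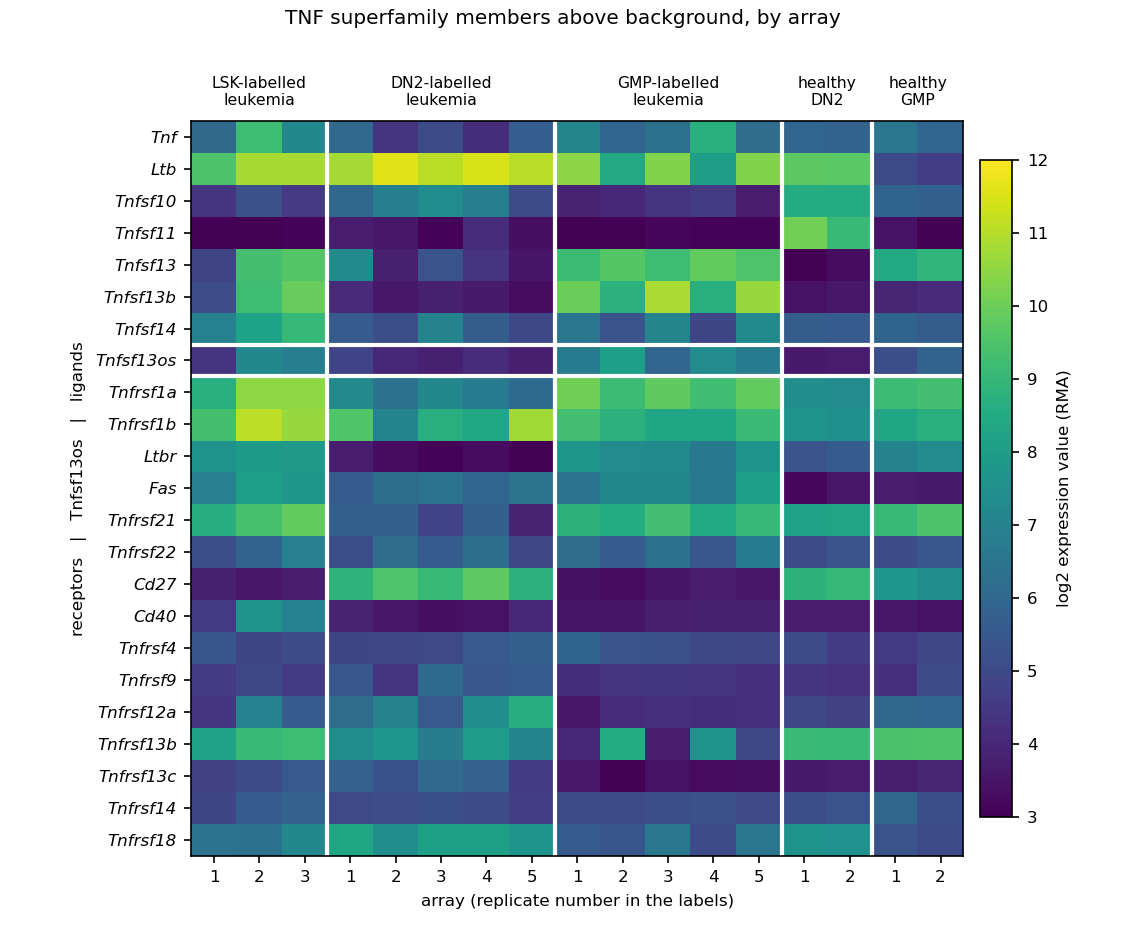
Log2 expression values (colour, RMA) of the 23 members above background (rows, ligands above, Tnfsf13os between, receptors below) in the 17 arrays (columns, by labelled group and replicate number). Cd27 is bright in the 5 DN2-labelled leukemia arrays (8.79 to 9.76) and dark in the other leukemia arrays (3.25 to 3.80), and Ltbr shows the opposite.

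Against healthy cells members moved in both directions. In DN2-labelled leukemias 8 members changed against healthy DN2 cells (29.6%), where 23.2% of all genes were called. Of these, 4 rose (9.48% of all genes) and 4 fell (13.7%), and 14 members had groups that did not overlap, where 50% of all genes did so. In GMP-labelled leukemias 6 members changed against healthy GMPs (22.2%), where 21.2% of all genes were called and the median difference of all genes lay at -0.12. Of these, 3 rose (8.08%) and 3 fell (13.1%), and 12 members had groups that did not overlap (43.5%). Both shares of members called were near the background. The healthy populations differed at 8 members (29.6%), where 11.2% of all genes were called. Of these, 5 were higher in DN2 (5.78%) and 3 lower (5.42%), and 21 members had groups that did not overlap (76.5%). The leukemia-against-healthy change itself differed between DN2 and GMP at 8 members, where 12.7% of all genes were called, with 3 differences above 0 (6.39%) and 5 below (6.28%).

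With 2 arrays per healthy group these counts rested on few arrays. For the fits that follow, the share of all genes called is not given, so their counts cannot be set against it. Without healthy DN2 array 1, DN2-labelled leukemias differed from healthy DN2 cells at 5 members. The healthy populations differed at 5 members without healthy DN2 array 2 or healthy GMP array 2, and at 14 when they alone were fitted. The change differed at 4 members without healthy DN2 array 2 and at 5 without healthy GMP array 1.

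BAFF was high in the GMP-labelled leukemias and at background in the DN2-labelled ones. Tnfsf13b, which supports B cell survival, read 9.99, 8.79, 10.85, 8.64 and 10.60 in the 5 GMP-labelled leukemia arrays, 4.08, 3.58, 3.78, 3.64 and 3.30 in the 5 DN2-labelled ones, and 5.14, 9.21 and 9.91 in the 3 LSK-labelled ones. Healthy DN2 cells read 3.43 and 3.59 and healthy GMPs 3.93 and 4.10. Every GMP-labelled array was therefore above every healthy array, whereas the DN2-labelled arrays lay at background with them. The log2 difference of DN2- from GMP-labelled leukemias was -6.10 ± 0.71 (SE; adjusted p = 6.64e-06), and GMP-labelled leukemias rose 5.76 ± 0.93 above healthy GMPs (adjusted p = 5.87e-04). The change in DN2 against healthy DN2, 0.17, was not called (adjusted p = 0.938), and the difference between the 2 changes was -5.59 ± 1.32 (adjusted p = 0.0112; 0.0560 without healthy DN2 array 2 and 0.0522 without healthy GMP array 1). Averaging all 3 Tnfsf13b probe sets gave -2.83 for DN2 against GMP, 2.69 for GMP against healthy GMP and -2.66 for the difference of changes, all still called. Against LSK-labelled leukemias, the difference of DN2-labelled ones was -4.41 ± 0.81 (adjusted p = 5.05e-04), or -1.97 with the probe sets averaged. With LSK-labelled array 1 as the only LSK array, assumed to vary like the other groups, that difference was -1.46 (adjusted p = 0.127). The late neutrophil marker mean (6 of 6 markers measured) was 13.01 to 13.74 in GMP-labelled, 12.08 to 13.74 in LSK-labelled and 3.53 to 5.20 in DN2-labelled leukemias, 7.38 to 7.47 in healthy GMPs and 3.53 to 3.69 in healthy DN2 cells, and its part in the result was not tested.

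APRIL followed a related but not identical pattern. Tnfsf13, which supports plasma cells, read 9.16, 9.62, 9.19, 9.84 and 9.51 in the GMP-labelled leukemias, 7.28, 3.78, 5.30, 4.35 and 3.49 in the DN2-labelled ones and 4.86, 9.36 and 9.59 in the LSK-labelled ones. Healthy GMPs already read 8.48 and 8.90, whereas healthy DN2 cells read 2.99 and 3.29. DN2-labelled leukemias were 4.62 ± 0.82 below GMP-labelled ones (adjusted p = 3.74e-04), with no overlap between the arrays. DN2-labelled arrays 1 and 3 had the 2 highest Tnfsf13 values of their group. Their monocyte and macrophage marker means were also its highest (6 of 6 markers measured, 6.93 and 5.47, with 3.80 as the lowest). In array 3, Ccr2 (7.42), Cx3cr1 (7.87) and Cd68 (6.32) were above background, and Csf1r (4.76), Adgre1 (3.07) and Fcgr1 (3.40) were not. The NK cell means (11.18 and 11.27) and dendritic cell means (7.48 and 5.91) of arrays 1 and 3 were likewise the highest of the group. The part of any of these cells was not tested. The difference of DN2- from GMP-labelled leukemias was -5.59 without arrays 1 and 3. GMP-labelled leukemias differed from healthy GMPs by 0.77, which was not called. Healthy DN2 cells were 5.55 ± 1.29 below healthy GMPs (adjusted p = 0.0110), a call that ended when any 1 of the 4 arrays was left out (adjusted p from 0.0543 to 0.0907).

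In the LSK-labelled group both ligands were lower in array 1 than in arrays 2 and 3. Tnfsf13 was 3.10 ± 0.95 lower in DN2-labelled than in LSK-labelled leukemias (adjusted p = 0.0145, overlapping groups), but the difference was -0.02 (adjusted p = 0.993) with LSK-labelled array 1 alone, and the call also ended without array 2 (-2.38, adjusted p = 0.0871) or array 3 (-2.27, adjusted p = 0.0949). The monocyte and macrophage marker mean read 7.84 in LSK-labelled array 1 and 10.24 and 9.90 in arrays 2 and 3, and its part was not tested. Tnfsf13os read 6.75, 8.06, 5.92, 7.33 and 6.67 in the GMP-labelled leukemias and 4.81, 3.99, 3.78, 4.14 and 3.77 in the DN2-labelled ones, without overlap. It was 2.85 ± 0.48 lower in DN2 (adjusted p = 2.59e-04), or 1.42 lower with its 2 probe sets averaged. Against the LSK-labelled leukemias (4.39, 7.21 and 6.86) it was 2.06 ± 0.56 lower (adjusted p = 0.00734), and -0.30 (adjusted p = 0.770) with LSK-labelled array 1 alone. The call also ended without LSK-labelled array 2 (-1.53, adjusted p = 0.0553) and with high or low Eif2s3y, a Y-linked gene, as a covariate (-1.55, adjusted p = 0.110).

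Lymphotoxin beta (Ltb), the membrane anchor of the lymphotoxin heterotrimer, rose in the GMP-labelled leukemias and was high in all other groups but healthy GMPs. It read 10.79, 11.60, 11.05, 11.46 and 11.03 in the DN2-labelled leukemias, 10.44, 8.42, 10.31, 8.06 and 10.30 in the GMP-labelled ones and 9.49, 10.83 and 10.84 in the LSK-labelled ones. Healthy DN2 cells read 9.72 and 9.69, and healthy GMPs 5.03 and 4.67. The 5 GMP-labelled arrays thus lay at least 3 units above both healthy GMP arrays, and Ltb rose by 4.66 ± 0.60 (adjusted p = 7.86e-05). DN2-labelled leukemias were 1.68 ± 0.45 above GMP-labelled ones (adjusted p = 0.00794) without overlap. They were 0.80 above LSK-labelled ones (adjusted p = 0.225) and 1.48 above healthy DN2 cells (adjusted p = 0.0908), neither of which was called. The change was smaller in DN2 than in GMP by 3.17 ± 0.84 (adjusted p = 0.0221), a call that ended without any 1 of the 4 healthy arrays (adjusted p from 0.0630 to 0.108) or without DN2-labelled arrays 1 and 3 (0.0523). Healthy DN2 cells exceeded healthy GMPs by 4.85 ± 0.71 (adjusted p = 3.12e-04). Lta, the partner of Ltb in that heterotrimer, was near background in all groups (3.10 to 3.87).

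Tnf itself, the cytokine of inflammation, varied widely within groups. It read 6.11, 9.21 and 7.21 in LSK-labelled leukemias, 6.07, 4.38, 5.10, 4.17 and 5.68 in DN2-labelled ones and 7.09, 5.95, 6.31, 8.72 and 6.21 in GMP-labelled ones, with healthy arrays from 5.87 to 6.55. DN2-labelled leukemias were lower than GMP-labelled ones by 1.78 ± 0.60 (adjusted p = 0.0284), with overlapping arrays. That call ended without DN2-labelled array 2 or 4 or GMP-labelled array 1 or 4 (adjusted p from 0.0553 to 0.0731). DN2-labelled leukemias were lower than LSK-labelled ones by 2.43 ± 0.69 (adjusted p = 0.00984), without overlap, and this call ended without LSK-labelled array 2 (-1.58, adjusted p = 0.0770) or without arrays 2 and 3 (-1.03, adjusted p = 0.427).

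TRAIL (Tnfsf10), a ligand that can induce apoptosis, was lower in both leukemias than in their healthy counterparts. It read 8.56 and 8.55 in healthy DN2 cells against 6.03, 6.88, 7.37, 6.88 and 5.04 in DN2-labelled leukemias, and 5.91 and 5.78 in healthy GMPs against 3.87, 4.05, 4.35, 4.60 and 3.70 in GMP-labelled leukemias. Neither pair of groups overlapped. Tnfsf10 fell by 2.11 ± 0.47 in DN2 (adjusted p = 0.00430; 0.0502 without healthy DN2 array 1) and by 1.73 ± 0.47 in GMP (adjusted p = 0.0174; 0.130 and 0.113 without healthy GMP array 1 or 2). The 2 changes differed by -0.38, which was not called (adjusted p = 0.768). DN2-labelled leukemias stayed 2.33 ± 0.35 above GMP-labelled ones (adjusted p = 9.53e-05) and 1.72 ± 0.41 above LSK-labelled ones (4.43, 5.24 and 4.50; adjusted p = 0.00321), and healthy DN2 cells were 2.70 ± 0.56 above healthy GMPs (adjusted p = 0.00482). All 3 Tnfsf10 probe sets gave these directions.

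RANKL (Tnfsf11), the ligand of osteoclast and thymic epithelial cell differentiation, marked healthy DN2 cells. It read 10.10 and 9.05 there and 2.90 to 4.13 in the other 15 arrays. Tnfsf11 passed the filter only through that group, so its calls below support nothing about the members as a whole. It fell by 6.01 ± 0.27 in DN2-labelled leukemias (3.68, 3.56, 3.08, 4.13 and 3.36; adjusted p = 3.78e-10), and the change differed from that in GMP by -5.80 ± 0.38 (adjusted p = 9.33e-08). Tnfsf11 lay at background in both GMP groups, so that difference mainly restates the DN2 fall. Healthy DN2 cells exceeded healthy GMPs (3.46 and 3.04) by 6.33 ± 0.32 (adjusted p = 4.96e-09). The other Tnfsf11 probe set gave smaller differences, -2.30 for DN2-labelled leukemias against healthy DN2 cells and 2.25 for healthy DN2 cells against healthy GMPs. The receptors of RANKL on the arrays, Tnfrsf11a (RANK) and the decoy Tnfrsf11b (osteoprotegerin), were near background everywhere. LIGHT (Tnfsf14), a ligand of Ltbr and Tnfrsf14, read 6.94, 8.23 and 9.03 in LSK-labelled leukemias, 5.60, 5.17, 7.03, 5.64 and 4.95 in DN2-labelled ones and 6.53, 5.30, 7.09, 4.88 and 7.26 in GMP-labelled ones. The difference of DN2- from LSK-labelled leukemias was -2.39 ± 0.60 (adjusted p = 0.00443), and LSK-labelled leukemias exceeded GMP-labelled ones by 1.85 ± 0.60 (adjusted p = 0.0324), with overlap in both. With LSK-labelled array 1 alone these were -1.26 (adjusted p = 0.300) and 0.73 (adjusted p = 0.657), and the second also ended without LSK-labelled array 2 or 3 or GMP-labelled array 2 or 4 (adjusted p from 0.0686 to 0.161).

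**Figure D2:**
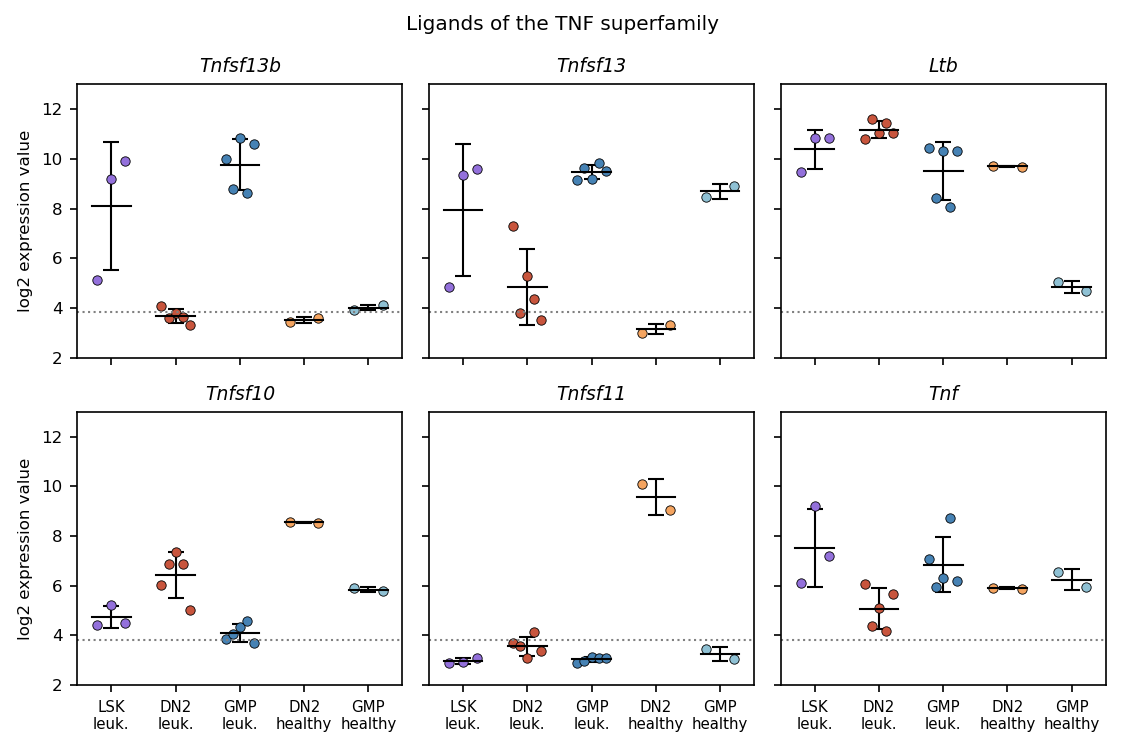
Log2 expression values of 6 ligands in the 5 groups. Points are arrays, bars the mean ± SD (n = 3, 5, 5, 2 and 2), and the dotted line the median of all values, 3.83. Tnfsf13b is high in the GMP-labelled leukemias and in LSK-labelled arrays 2 and 3 alone, and Tnfsf11 in healthy DN2 cells alone.

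Ltbr, Tnfrsf1a and Tnfrsf21 were lower in the DN2-labelled leukemias than in both others. Ltbr, the lymphotoxin beta receptor and a starter of non-canonical NF-kB, read 3.68, 3.29, 3.07, 3.28 and 2.95 in DN2-labelled leukemias, 7.77, 7.33, 7.28, 6.65 and 7.64 in GMP-labelled ones and 7.58, 7.92 and 7.83 in LSK-labelled ones. Every DN2-labelled array was at background and at least 2 units below each of the other 8 leukemia arrays. The differences were -4.08 ± 0.20 against GMP (adjusted p = 4.97e-10) and -4.52 ± 0.23 against LSK (adjusted p = 1.83e-09; -4.32 with LSK-labelled array 1 alone). Healthy DN2 cells read 5.39 and 5.61, so Ltbr fell by 2.24 ± 0.26 in DN2-labelled leukemias (adjusted p = 1.73e-05), whereas in GMP-labelled leukemias it differed from healthy GMPs (7.04 and 7.33) by 0.15 (adjusted p = 0.737). The changes differed by -2.39 ± 0.37 (adjusted p = 4.85e-04), and healthy DN2 differed from healthy GMP by -1.69 ± 0.31 (adjusted p = 0.00218). The late neutrophil markers moved with Ltbr, Tnfrsf1a and Tnfrsf21 across the leukemias. Their means were 3.53 to 5.20 in DN2-labelled, 13.01 to 13.74 in GMP-labelled and 12.08 to 13.74 in LSK-labelled arrays. In healthy cells that mean was 3.53 to 3.69 for DN2 and 7.38 to 7.47 for GMP, and these 3 receptors were above background in both. The part of the late neutrophil markers in these 3 results was not tested. Ltb had its highest group mean (11.19 ± 0.33, SD, n = 5) in the DN2-labelled leukemias, where Ltbr had its lowest (3.26 ± 0.28). Ltb was high in every group but healthy GMPs, however. Its differences from LSK-labelled leukemias (0.80, adjusted p = 0.225) and healthy DN2 cells (1.48, adjusted p = 0.0908) were not called.

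Tnfrsf1a, TNF receptor 1 with a death domain, read 7.22, 6.34, 7.16, 6.72 and 6.13 in DN2-labelled leukemias, 10.05, 9.15, 9.80, 9.24 and 9.85 in GMP-labelled ones and 8.69, 10.46 and 10.47 in LSK-labelled ones. The DN2-labelled arrays lay below all other leukemia arrays. They differed from GMP-labelled ones by -2.90 ± 0.33 (adjusted p = 5.25e-06) and from LSK-labelled ones by -3.15 ± 0.38 (adjusted p = 1.32e-05), or by -1.97 (adjusted p = 0.00371) with LSK-labelled array 1 alone. Healthy DN2 cells (7.46 and 7.34) differed from healthy GMPs (9.17 and 9.30) by -1.83 ± 0.52 (adjusted p = 0.0330), a call that ended without any 1 of the 4 arrays (adjusted p from 0.117 to 0.183). Tnfrsf1b, TNF receptor 2, has no death domain and gave no call in any comparison; it ranged from 7.04 to 10.73 within the DN2-labelled arrays alone.

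Tnfrsf21 (death receptor 6), a receptor with a death domain, was lower in the DN2-labelled leukemias than in the other leukemias and in healthy DN2 cells. It read 5.81, 5.81, 4.81, 5.75 and 3.91 there, 8.82, 8.59, 9.31, 8.47 and 9.03 in GMP-labelled leukemias, 8.60, 9.37 and 9.85 in LSK-labelled ones, 8.19 and 8.24 in healthy DN2 cells and 9.05 and 9.48 in healthy GMPs. The differences were -3.63 ± 0.35 against GMP (adjusted p = 9.92e-07) and -4.06 ± 0.40 against LSK (adjusted p = 2.23e-06). The other Tnfrsf21 probe set gave -2.20 and -2.41, and -1.52 against healthy DN2 cells. By the main probe set, Tnfrsf21 fell by 3.00 ± 0.46 from healthy DN2 cells (adjusted p = 2.47e-04), while GMP-labelled leukemias differed from healthy GMPs by -0.43. The changes differed by -2.58 ± 0.65 (adjusted p = 0.0171), a call that ended without healthy DN2 array 1 or 2 or healthy GMP array 1 (adjusted p from 0.0702 to 0.0909).

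Fas (CD95), the death receptor that limits lymphoid and myeloid cells, was higher in both leukemias than in their healthy counterparts. It read 3.18 and 3.56 in healthy DN2 cells, 3.68 and 3.63 in healthy GMPs, 5.62, 6.25, 6.43, 5.92 and 6.45 in DN2-labelled leukemias, 6.43, 7.17, 7.15, 6.65 and 8.08 in GMP-labelled ones and 6.92, 8.07 and 7.76 in LSK-labelled ones. All 13 leukemia arrays were above all 4 healthy ones, which lay at background. Fas rose by 2.77 ± 0.39 in DN2 (adjusted p = 1.08e-04) and by 3.44 ± 0.39 in GMP (adjusted p = 2.39e-05), and the changes differed by -0.67, which was not called (adjusted p = 0.484). Between leukemias, DN2 was lower than LSK by 1.45 ± 0.34 (adjusted p = 0.00287; -0.78 and 0.253 with LSK-labelled array 1 alone) and lower than GMP by 0.96 ± 0.29 (adjusted p = 0.0170, overlapping; 0.0608 without DN2-labelled arrays 1 and 3). Its ligand Fasl is not a member by the symbol rule. The TRAIL receptor Tnfrsf10b was near background and gave no call, and Tnfrsf22, a decoy TRAIL receptor of the mouse, gave no call and had probe sets that disagreed. Its main probe set read 5.18, 5.85 and 6.92 in LSK-labelled, 5.17, 6.22, 5.62, 6.26 and 4.92 in DN2-labelled, 6.23, 5.62, 6.33, 5.45 and 6.69 in GMP-labelled leukemias, 5.08 and 5.37 in healthy DN2 and 5.05 and 5.44 in healthy GMP cells. Another read 3.79, 3.60 and 3.48 in LSK-labelled, 4.02, 4.92, 4.36, 4.90 and 4.33 in DN2-labelled, 3.63, 4.55, 3.97, 4.52 and 4.02 in GMP-labelled leukemias, 4.08 and 4.16 in healthy DN2 and 4.91 and 5.12 in healthy GMP cells. Their differences of GMP-labelled leukemia from healthy GMP were 0.82 and -0.88, so no direction is given for this gene.

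Among the receptors without a death domain that signal through TRAFs, Cd27 had the largest differences between leukemias. Cd27, a costimulatory receptor of T and NK cells that is also carried by progenitors, read 8.86, 9.51, 9.09, 9.76 and 8.79 in DN2-labelled leukemias, 3.39, 3.25, 3.50, 3.71 and 3.55 in GMP-labelled ones and 3.80, 3.53 and 3.72 in LSK-labelled ones. Healthy DN2 cells read 8.83 and 9.04 and healthy GMPs 7.72 and 7.44. GMP- and LSK-labelled leukemias were at background, and GMP-labelled leukemias fell by 4.10 ± 0.23 from healthy GMPs (adjusted p = 1.63e-08), whereas DN2-labelled leukemias differed from healthy DN2 cells by 0.27 (adjusted p = 0.478). DN2-labelled leukemias exceeded GMP-labelled ones by 5.72 ± 0.18 (adjusted p = 3.98e-12) and LSK-labelled ones by 5.52 ± 0.20 (adjusted p = 6.62e-11). The changes differed by 4.37 ± 0.33 (adjusted p = 4.24e-07). Healthy DN2 cells exceeded healthy GMPs by 1.35 ± 0.28 (adjusted p = 0.00492; 0.0595 without healthy DN2 array 2 and 0.0674 without healthy GMP array 2). The T and NK cell marker lists were also high in the DN2-labelled leukemias (NK, 5 of 5 markers measured, means 9.01 to 11.27, against 3.13 to 3.41 in GMP-labelled and 5.78 to 7.62 in LSK-labelled leukemias); the part of such cells was not tested.

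GITR (Tnfrsf18), a costimulatory receptor of T cells, read 8.32, 7.40, 8.10, 8.10 and 7.66 in DN2-labelled leukemias, 5.54, 5.41, 6.60, 5.07 and 6.54 in GMP-labelled ones and 6.42, 6.38 and 7.19 in LSK-labelled ones, with 7.58 and 7.55 in healthy DN2 cells and 5.29 and 5.00 in healthy GMPs. DN2 exceeded GMP in the leukemias by 2.09 ± 0.30 (adjusted p = 4.93e-05) and in healthy cells by 2.42 ± 0.47 (adjusted p = 0.00297). DN2-labelled leukemias exceeded LSK-labelled ones by 1.25 ± 0.34 (adjusted p = 0.00750), and by 1.5 with LSK-labelled array 1 alone. With the Y-linked gene Eif2s3y, scored as high or low, as a covariate, the difference was 0.78 (adjusted p = 0.160). Eif2s3y was high in all LSK-labelled arrays and in 1 array each of the DN2- and GMP-labelled leukemias. 4-1BB (Tnfrsf9) read 5.44, 4.34, 6.16, 5.44 and 5.56 in DN2-labelled leukemias and 4.19 to 4.46 in GMP-labelled ones. It was higher by 1.06 ± 0.26 (adjusted p = 0.00506, overlapping; 0.55 with probe sets averaged), and rose by 1.05 ± 0.35 from healthy DN2 cells (adjusted p = 0.0415). The latter call ended without DN2-labelled array 1, 3, 4 or 5 (adjusted p from 0.0656 to 0.0686) or either healthy DN2 array (1.12 or 0.99). It also ended without DN2-labelled arrays 1 and 3, at 0.78 (adjusted p = 0.127). OX40 (Tnfrsf4, 4.53 to 5.91) and HVEM (Tnfrsf14, 4.67 to 5.99) gave no call.

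Tnfrsf12a (Fn14), the receptor of TWEAK, read 6.23, 7.04, 5.52, 7.45 and 8.60 in DN2-labelled leukemias, 3.59, 4.14, 4.26, 4.19 and 4.20 in GMP-labelled ones and 4.42, 6.97 and 5.58 in LSK-labelled ones, against 4.91 and 4.73 in healthy DN2 cells and 6.01 and 5.94 in healthy GMPs. All DN2-labelled arrays were above both healthy DN2 arrays, and all GMP-labelled arrays below both healthy GMP arrays. DN2 exceeded GMP leukemias by 2.89 ± 0.51 (adjusted p = 3.54e-04). Tnfrsf12a rose by 2.15 ± 0.67 in DN2 (adjusted p = 0.0313), a call that ended without DN2-labelled array 2 or 4 or either healthy DN2 array (adjusted p from 0.0509 to 0.191), and differed by -1.90 in GMP (adjusted p = 0.0583). The changes differed by 4.05 ± 0.95 (adjusted p = 0.0110; 0.0569 without healthy DN2 array 2).

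The arrays held 3 receptors of BAFF and APRIL, which differed in their pattern. BAFF-R (Tnfrsf13c), which binds BAFF on B cells, read 5.83, 5.28, 6.06, 5.83 and 4.60 in DN2-labelled leukemias, 4.79, 5.07 and 5.50 in LSK-labelled ones and 3.61, 3.05, 3.45, 3.27 and 3.34 in GMP-labelled ones, with 3.65 to 3.93 in the 4 healthy arrays. Neither DN2- nor LSK-labelled arrays overlapped with the GMP-labelled ones. DN2 exceeded GMP by 2.18 ± 0.24 (adjusted p = 3.71e-06), LSK exceeded GMP by 1.78 ± 0.27 (adjusted p = 4.10e-04; 1.45 and 0.0386 with LSK-labelled array 1 alone), and DN2 rose by 1.84 ± 0.31 from healthy DN2 cells (adjusted p = 6.21e-04). The changes differed by 2.34 ± 0.45 (adjusted p = 0.00265). The B cell marker means were 3.67 to 4.90 in DN2-labelled and 5.07 to 5.82 in LSK-labelled leukemias (4 of 5 markers measured) and 3.61 to 3.90 in GMP-labelled ones. Pax5 and Cd79a were near background in every group. Cd79b read 7.49 to 7.94 in LSK-labelled, 4.34 to 7.14 in DN2-labelled and 4.20 to 5.51 in GMP-labelled leukemias, and Ms4a1 read 4.75, 6.92 and 7.60 in LSK-labelled arrays, 2.97 to 5.43 in DN2-labelled and 3.20 to 3.48 in GMP-labelled ones. The part of these markers in the result was not tested.

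TACI (Tnfrsf13b), which binds both ligands, read 9.13 and 9.08 in healthy DN2 cells, 9.41 and 9.50 in healthy GMPs, 4.01, 8.58, 3.74, 7.59 and 4.95 in GMP-labelled leukemias, 7.41, 7.72, 6.82, 7.99 and 7.04 in DN2-labelled ones and 8.19, 9.09 and 9.22 in LSK-labelled ones. GMP-labelled arrays 2 and 4 were near the DN2-labelled level, while arrays 1, 3 and 5 were lower. Tnfrsf13b fell by 3.68 ± 1.00 in GMP-labelled leukemias (adjusted p = 0.0183; 0.118 and 0.136 without healthy GMP array 1 or 2). LSK exceeded GMP by 3.06 ± 0.88 (adjusted p = 0.0181, overlapping), a call that ended without LSK-labelled array 2 (0.0709) or 3 (0.0668), with array 1 alone (2.42, adjusted p = 0.308) and with the Eif2s3y covariate (1.49, adjusted p = 0.320). The DN2 change of -1.71 was not called (adjusted p = 0.261). BCMA (Tnfrsf17) was high in LSK-labelled array 1 alone (5.99). It passed the filter only through that array's group, so its call between DN2- and LSK-labelled leukemias supports nothing here; the call ended with no filter (adjusted p = 0.0622) and without that array (-0.27, adjusted p = 0.172).

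Cd40, the receptor of B cells and antigen-presenting cells for Cd40lg, had a group mean above background in the LSK-labelled leukemias alone. It read 4.52, 7.62 and 7.00 there, 3.85, 3.57, 3.36, 3.43 and 4.03 in DN2-labelled leukemias, 3.50, 3.50, 3.75, 3.77 and 3.77 in GMP-labelled ones, 3.70 and 3.74 in healthy DN2 cells and 3.58 and 3.43 in healthy GMPs. Its 2 probe sets gave the same direction in both comparisons with the LSK-labelled leukemias and opposite signs in 3 comparisons that were not called. Cd40 passed the filter only through the LSK-labelled group, so its calls against that group support nothing about the members as a whole. LSK exceeded GMP by 2.72 ± 0.47 (adjusted p = 8.83e-04), and DN2 differed from LSK by -2.73 ± 0.47 (adjusted p = 2.89e-04). With LSK-labelled array 1 alone these differences were 0.86 and -0.87. Dendritic cell markers (4 of 5 measured) averaged 6.52, 8.88 and 8.86 in the LSK-labelled arrays. They averaged 3.71 to 7.48 in DN2-labelled and 4.06 to 5.15 in GMP-labelled leukemias. In DN2-labelled array 1 that mean was 7.48, with Cd209a at 3.61, and Cd40 read 3.85. The part of these markers in the Cd40 result was not tested.

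**Figure D3:**
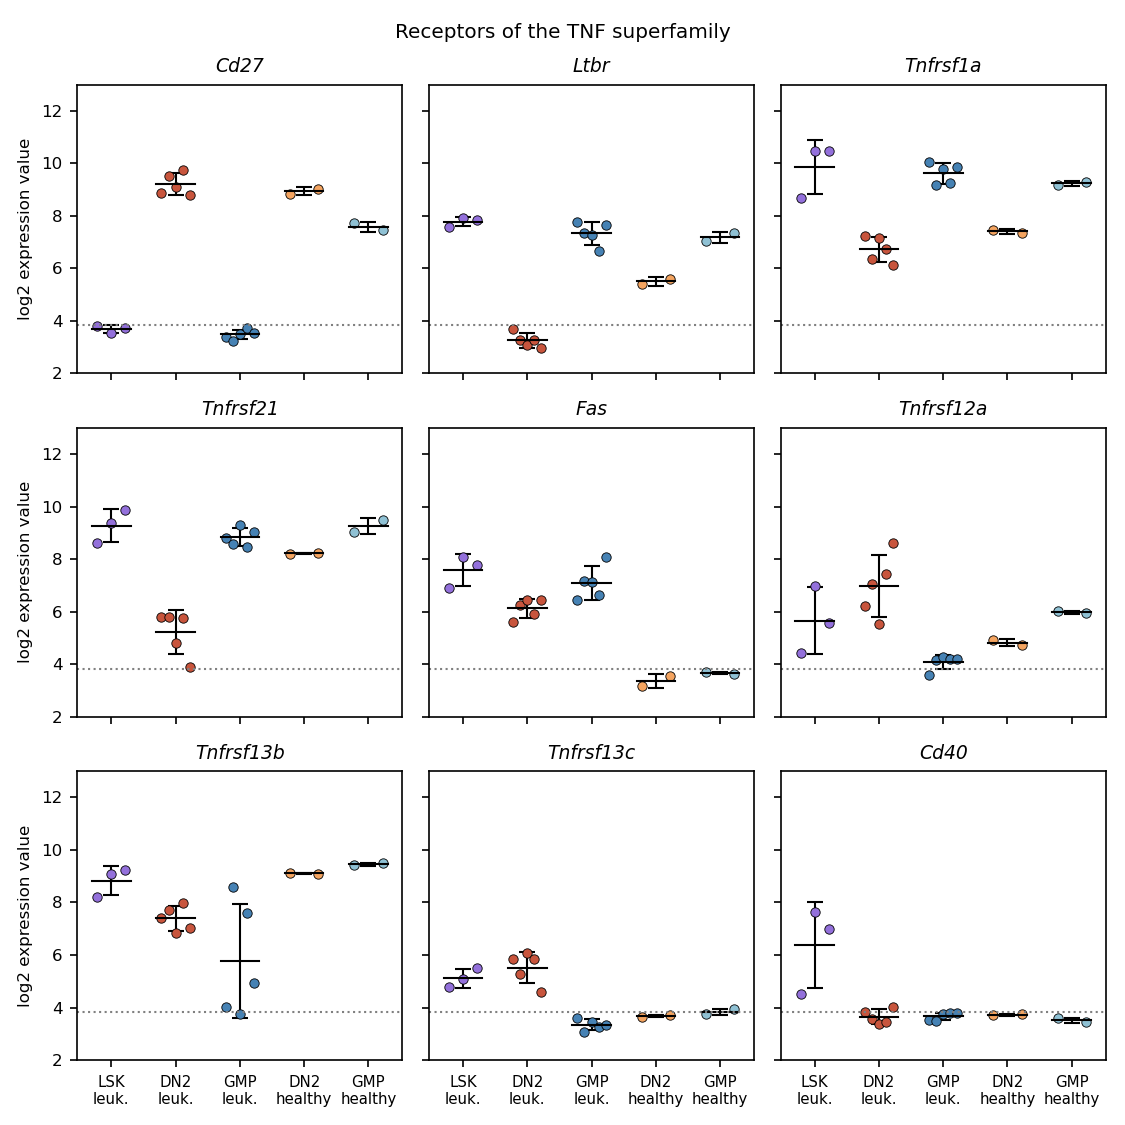
Log2 expression values of receptors in the 5 groups, drawn as for the ligands: points are arrays, bars the mean ± SD and the dotted line the median of all values. Ltbr and Tnfrsf21 read lowest in the DN2-labelled leukemias, Cd27 lowest in the GMP- and LSK-labelled ones, and Fas lies at background in the healthy cells alone.

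**Figure D4:**
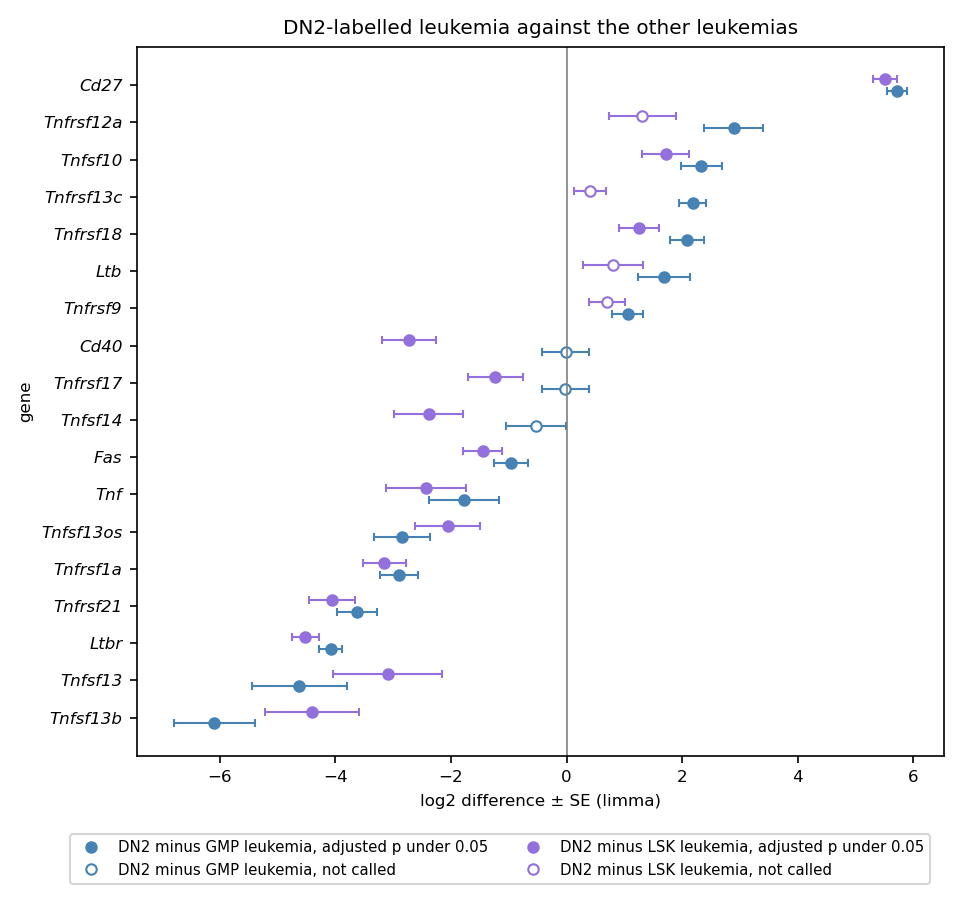
Log2 difference ± SE (limma) of members between leukemias, with filled symbols for adjusted p under 0.05 and open symbols for differences not called. Cd27 lies at 5.72 and 5.52 on the side of the DN2-labelled leukemias, and Tnfsf13b and Ltbr lie on the other.

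**Figure D5:**
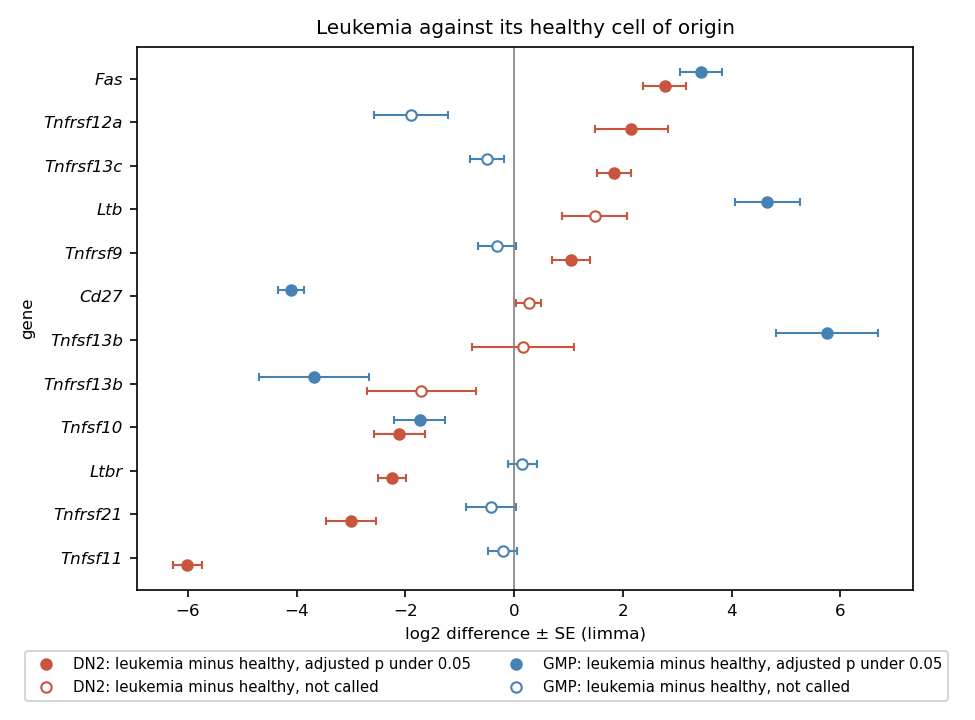
Log2 difference ± SE (limma) of leukemia minus healthy cell, for DN2 (red) and GMP (blue); filled symbols have an adjusted p under 0.05. Fas rose and Tnfsf10 fell in both, and Cd27, Tnfsf13b and Tnfsf11 moved in 1 lineage each.

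Of 40 genes listed for signalling downstream of the receptors, 36 were measured and tested. Where counts are given for fits that leave out arrays, the share of all genes called in those fits is not given. Between DN2- and GMP-labelled leukemias 18 were higher in DN2 (21% of all genes), 3 lower (18.8%) and 15 not called, with a median of 0.60 against 0.03 over all genes. Traf1, an adaptor induced by NF-kB, read 9.50, 9.33, 8.81, 8.13 and 9.84 in DN2-labelled leukemias and 3.44 to 4.17 in GMP-labelled ones, a difference of 5.41 ± 0.58 (adjusted p = 3.05e-06). Tnfaip3 (A20, a ubiquitin-editing inhibitor of NF-kB) was higher by 4.79 ± 0.72 (adjusted p = 8.77e-05), with GMP-labelled array 4 at 10.60 and the other 4 at 6.65 to 7.33. The adaptor Traf5 was higher by 3.42 ± 0.39, Nfkbie, an inhibitor of NF-kB, by 2.70 ± 0.51 and Relb, the non-canonical NF-kB subunit, by 2.64 ± 0.47. Mlkl, the effector of necroptosis, differed by -2.09 ± 0.31. Without DN2-labelled arrays 1 and 3, 14 were higher and 3 lower.

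Between DN2- and LSK-labelled leukemias 4 of the 36 were higher in DN2 (28.3% of all genes) and 9 lower (19.1%). The balance rested on LSK-labelled array 2: without it 7 were higher and 5 lower, and with LSK-labelled array 1 alone 5 were higher and 4 lower. Without DN2-labelled array 2 the counts were 2 and 8. Mlkl differed by -3.62 ± 0.36 and Map3k5 (ASK1, a stress kinase) by -2.67 ± 0.38. Traf4 (means 5.95 in DN2 and 4.44 in LSK) and Traf5 (7.52 and 6.22) were called higher in DN2. The Traf4 call ended with LSK-labelled array 1 alone (0.79). The Traf5 call ended without LSK-labelled array 1 (0.56, adjusted p = 0.196), DN2-labelled array 2 (1.24, adjusted p = 0.0543) or DN2-labelled arrays 1 and 3 (1.38, adjusted p = 0.0556). Cflar, an inhibitor of caspase-8, differed by -1.49 ± 0.46 (adjusted p = 0.0156), a call that ended without LSK-labelled array 2 (0.0694) or 3 (0.0721). Between LSK- and GMP-labelled leukemias 16 were higher in LSK (10.3% of all genes) and 1 lower (16.5%), but 4 and 0 with LSK-labelled array 1 alone, and 10 and 1 without LSK-labelled array 2. Traf1 exceeded GMP by 3.82 ± 0.67, or by 1.99 (adjusted p = 0.0187) with array 1 alone, and ran from 5.70 in LSK-labelled array 1 to 9.98 in array 2. The calls for Nfkbie (3.34 ± 0.59) and Relb (2.58 ± 0.54) ended with array 1 alone, at 1.82 (adjusted p = 0.120) and 1.09 (adjusted p = 0.278).

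Against healthy cells, in DN2-labelled leukemias 8 genes of the list rose (9.48% of all genes) and 2 fell (13.7%), or 5 and 1 without either healthy DN2 array. Traf1 rose by 4.69 ± 0.77, Relb by 3.27 ± 0.62 and Traf5 by 3.19 ± 0.52, and Mlkl fell by 4.17 ± 0.41 (adjusted p = 2.83e-06). In GMP-labelled leukemias 3 rose (8.08% of all genes) and 4 fell (13.1%), a share called near the 21.2% of all genes, or 0 and 2 without healthy GMP array 2 and 1 and 3 without healthy GMP array 1. Mlkl fell by 2.70 ± 0.41 (adjusted p = 3.13e-04) and Casp8, the initiator caspase of death receptors, by 1.36 ± 0.27. Birc3 (cIAP2) rose by 1.86 ± 0.39 (adjusted p = 0.00402; 0.0549 without healthy GMP array 2). Birc3 was also called higher in DN2-labelled leukemias (mean 10.06) than in healthy DN2 cells (8.69). That call ended without either healthy DN2 array (1.35 or 1.38) and without DN2-labelled arrays 1 and 3 (1.10, adjusted p = 0.0702). Mlkl, at 8.04 to 8.76 in the healthy arrays and 3.22 to 6.96 in the DN2- and GMP-labelled leukemia arrays, was lower in all 10 of these. The healthy groups differed at 1 gene of the list, where 11.2% of all genes were called. It was Bid, a caspase-8 substrate (-1.04 ± 0.21, adjusted p = 0.00411; 0.0504 without healthy DN2 array 1). The change, called for 12.7% of all genes, differed between DN2 and GMP for Traf5 (3.48 ± 0.74, adjusted p = 0.00540), for Traf1 (4.56 ± 1.09, adjusted p = 0.0118; 0.0690 without healthy DN2 array 2, 0.0509 or 0.0545 without healthy GMP array 1 or 2) and for Map3k5 (-2.29 ± 0.62), a call that ended without any 1 healthy array (adjusted p from 0.0704 to 0.110).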

How the data were processed

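The authors deposited 1 table of log2 values for 45141 probe sets on 17 Affymetrix arrays, prepared from 300 ng of RNA per the labels' protocols. RMA and affy are named per the submitters' processing notes, but no version or filter is. From the deposited log2 values, 104 control probe sets were left out, and 28898 probe sets with 1 gene symbol in the platform annotation were kept, 551 with several and 15588 unlisted not being named. For a gene with several probe sets, the brightest on average over all 17 arrays was used. Genes with a highest group mean above 3.83, the median of all values, were tested with limma 3.58.1 in R 4.3.3, in 1 fit of all arrays with a mean per group (lmFit and eBayes, two-sided, Benjamini-Hochberg over 11629 genes), which was tested on simulated data. Members with no group mean over 4.83 were called near background. Full array values are given for the 6 called members with the largest difference in each comparison among those whose groups do not overlap, for members whose probe sets disagree, and for further members where they help; the signalling genes named are among the 6 largest called per comparison. Members, lists and tests were chosen with earlier results of these data known. Replicate numbers were checked for pairing and were not used as pairs. The replicate block, an Eif2s3y covariate, other filters, quantile normalization, probe set means, fits of the compared groups alone and leaving out each array were tried. Promoters are RefSeq's, on GRCm38.p6; the build behind the arrays is not named.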

Additional observations from a re-analysis of the deposited data

Results flagged for a closer look

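Among 46 checks of a member within a group of 5 arrays, 1 value lay apart from the others: Tnfrsf12a in GMP-labelled leukemia array 1, at 3.59 against 4.14 to 4.26 in the other 4, with a gap of 0.82 of the range, above the critical 0.71. Chance gives such a value in about 1 in 20 groups.

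For 8 members the leukemia-against-healthy change differed between DN2 and GMP by limma's test of the difference. Tnfsf11 is counted among them but passed the filter only through healthy DN2 cells, so its call supports nothing about the members as a whole. The DN2 change minus the GMP change was -5.80 for Tnfsf11, -5.59 for Tnfsf13b, 4.37 for Cd27, 4.05 for Tnfrsf12a, -3.17 for Ltb, -2.58 for Tnfrsf21, -2.39 for Ltbr and 2.34 for Tnfrsf13c. Those for Tnfsf11, Cd27, Ltbr and Tnfrsf13c kept an adjusted p under 0.05 without any 1 array.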

How the results depend on the processing

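Of 63 called differences of members, 39 stayed called under every alternative run for them, and none reversed. The counts of called members below come without the share of all genes called in the same fit, so they cannot be set against it. Quantile normalization moved no value by more than 0.211 and, like averaging probe sets, ended no call. Leaving out 1 array at a time gave 14 to 16 called members for DN2- against GMP-labelled leukemias, 12 to 17 for DN2 against LSK, 3 to 9 for LSK against GMP, 5 to 8 for DN2 against healthy DN2, 4 to 6 for GMP against healthy GMP, 5 to 6 between the healthy groups and 4 to 9 for the difference of changes. Fitting the healthy groups alone called 14 members; the cause was not tested. Leaving out LSK-labelled arrays 2 and 3, an alternative chosen after the data were seen, called 9 members for DN2 against LSK, with 1 LSK array left. Leaving out DN2-labelled arrays 1 and 3, also chosen then, ended 4 calls. Replicate numbers were shared by the groups, but deviations of same-numbered arrays correlated from -0.302 to 0.254, and in DN2 against GMP leukemias 6 of 10 arrays correlated best with their own number. With the replicate block the counts were 14, 12, 5, 6, 7, 7 and 8, in the order above, and 6 of the 63 calls ended. With 2 arrays per healthy group, 1 array decides many calls there, and signal near background limits low values.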

Other observations

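Within the GMP-labelled leukemias, arrays 2 and 4 read apart from arrays 1, 3 and 5 for several members. Ltb read 8.42 and 8.06 in arrays 2 and 4 against 10.30 to 10.44, Tnfsf14 read 5.30 and 4.88 against 6.53 to 7.26, and Tnfsf13b read 8.79 and 8.64 against 9.99 to 10.85. Tnfrsf13b ran the other way, at 8.58 and 7.59 against 3.74 to 4.95, as did Tnfsf13os, at 8.06 and 7.33 against 5.92 to 6.75. These arrays were picked out by their values, so no test is given. Eif2s3y was high in array 2 but not in array 4.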
